A study of Mus musculus with 6 samples.

Results

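The haemoglobin and haem synthesis genes comprise 7 of the 21959 genes in the deposited table, chosen by symbol: the adult alpha-globin genes Hba-a1 and Hba-a2, the adult beta-globin genes Hbb-bs and Hbb-bt, and the haem enzyme genes Alas2, Alas1 and Fech. Bulk RNA sequencing gave their levels in the paraventricular thalamus, which lies at the midline beneath the third ventricle, for 3 libraries from mice with chronic constriction injury (CCI replicates 1, 2 and 3) and 3 libraries from untreated mice (control replicates 4, 5 and 6). CCI is a model of neuropathic pain in which loose ligatures are placed around a peripheral nerve. Mice of both groups are labelled wild type, and their strain, age, sex and time after surgery are not given in the sources used here. The submitters state 30 mice per group, and no label ties mice to libraries; the p-values therefore rest on library-to-library variation, part of which may be technical.

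Haemoglobin is a tetramer of a pair of alpha and a pair of beta chains, each holding a haem group. Haem is built from glycine and succinyl-CoA by a chain of enzymes that begins and ends in the mitochondrion. The entry step is catalysed by 5-aminolevulinate synthase, encoded by Alas1 in all cells and by Alas2 in developing red cells, and the exit step, insertion of iron into protoporphyrin, by ferrochelatase, encoded by Fech. In brain tissue globin transcripts can come from reticulocytes in vessels, and low globin expression has also been described in rodent neurons and glia. Bulk libraries do not separate these sources, and fewer cells of a type and less RNA per cell cannot be told apart.

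The libraries held 7989139 to 10529886 counts in CCI and 12337448 to 15438268 in control. Levels are CPM, counts relative to the library total, after TMM scaling, which aligns the bulk of genes between libraries. CCI libraries had TMM factors of 1.21 to 1.25, against 0.686 to 0.9 for control libraries. Control replicate 5 had the lowest factor and stood apart from the other controls (Pearson r on log2(FPKM + 1) of 0.973 and 0.976 with replicates 4 and 6, which correlated at 0.995). All 10 genes of a list of paraventricular and midline thalamus markers were detected, at a summed 1334 to 2059 CPM in CCI and 4525 to 7352 CPM in control. By edgeR's quasi-likelihood test 1 of the 10 was higher in CCI (27.0% of all tested genes were) and 6 were lower (25.3%). The part of this tissue difference in the results below was not tested.

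Much of each globin transcript is shared with its second copy, which bears on every single-copy value. In the GENCODE M21 transcripts the coding sequences of Hba-a1 and Hba-a2 differed at 1 of 429 bases and those of Hbb-bs and Hbb-bt at 1 of 444 bases. Of all stretches of 100 bases in the Hbb-bt transcript, 54.8% also occurred in Hbb-bs, and of those in the Hba-a2 transcript 74.5% occurred in Hba-a1. How reads that match both copies were counted is not given in the sources used here. The 60 coding bases around each differing base are shown, 5′ to 3′, with that base in capitals; it lies at position 381 of the alpha and position 417 of the beta coding sequence, counted from the first base of the start codon.
Hba-a1 coding: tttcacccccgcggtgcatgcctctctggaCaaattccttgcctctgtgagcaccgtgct
Hba-a2 coding: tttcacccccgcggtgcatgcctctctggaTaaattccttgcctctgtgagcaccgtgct
Hbb-bs coding: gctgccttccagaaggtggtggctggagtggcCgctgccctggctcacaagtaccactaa
Hbb-bt coding: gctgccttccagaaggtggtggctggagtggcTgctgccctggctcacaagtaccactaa

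The sequences before the start sites separate the copies differently. The RefSeq promoter entries of Hba-a1 and Hba-a2 (GRCm38.p6, 300 bases each) shared an identical run of 297 bases, whereas the longest run shared by Hbb-bs and Hbb-bt was 14 bases. Entries of 6 of the 7 genes were used. The 150 bases before the annotated start are shown for 4 of them, 5′ to 3′ on the gene's strand, because the beta copies and Alas2 were the members that rose in CCI and Hba-a1 stands for the alpha copies that did not pass. Capitals mark matches, on either strand, to 4 short motifs: GATAA for GATA factors, CACCC for KLF factors, CCAAT for CCAAT-binding proteins and TATAA for the TATA-binding protein.
Hba-a1 upstream, chr11:32283522-32283671, plus strand: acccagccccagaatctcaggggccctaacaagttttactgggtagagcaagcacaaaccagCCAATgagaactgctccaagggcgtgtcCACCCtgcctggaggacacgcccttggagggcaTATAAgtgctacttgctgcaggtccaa
Hbb-bs upstream, chr7:103827929-103828078, minus strand: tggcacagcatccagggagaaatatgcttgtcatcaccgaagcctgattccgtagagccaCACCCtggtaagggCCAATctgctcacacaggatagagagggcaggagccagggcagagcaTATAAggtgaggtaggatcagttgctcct
Hbb-bt upstream, chr7:103813924-103814073, minus strand: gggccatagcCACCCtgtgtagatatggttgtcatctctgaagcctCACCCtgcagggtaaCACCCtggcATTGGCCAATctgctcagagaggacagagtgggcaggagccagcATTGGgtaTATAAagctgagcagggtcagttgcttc
Alas2 upstream, chrX:150547267-150547416, plus strand: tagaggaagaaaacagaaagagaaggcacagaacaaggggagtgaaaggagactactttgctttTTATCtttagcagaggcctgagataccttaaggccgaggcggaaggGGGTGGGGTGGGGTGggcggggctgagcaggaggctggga
The Hbb-bt window held 3 CACCC, 3 CCAAT and 1 TATAA matches, none overlapping, and the Hbb-bs and Hba-a1 windows held 1 of each. Alas2 had 1 GATAA and 3 CACCC matches, and the windows before the Alas1 start sites had none of the 4 motifs. Among all 32851 windows of the same length, 13.3% held GATAA, 37.4% CACCC, 24.5% CCAAT and 14.2% TATAA. These matches describe letters only.

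The comparison of CCI with control asked which of these transcripts differed and whether globins and haem enzymes did so alike. The beta-globin transcripts and Alas2 were higher in CCI, with Hbb-bt 5.59-fold, Alas2 2.05-fold and Hbb-bs 1.99-fold higher, while Fech fell to 0.273 of its control level. Neither alpha-globin gene nor Alas1 passed. By edgeR's quasi-likelihood test, 2-sided and adjusted over all 14259 tested genes by the Benjamini-Hochberg method with a threshold of 0.05, 3 of the 7 members were higher (27.0% of all tested genes were) and 1 was lower (25.3% of all tested genes). Together these were 4 of 7 members, against 52.3% of all tested genes. In 4 of the 7 the CPM values of the groups did not overlap, against 63.0% of all tested genes: 3 had every CCI library above every control (33.6% of all tested genes) and 1 had every CCI library below (29.4%). Changes of this kind were thus common in the table.

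**Figure D1:**
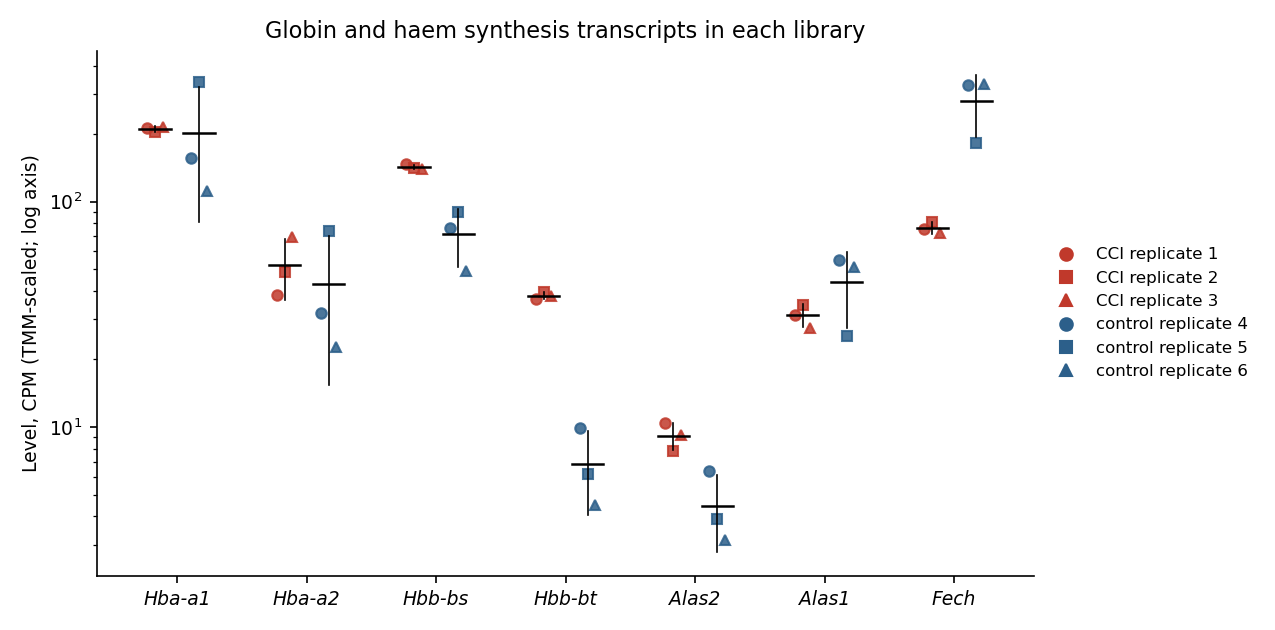
Level of each gene in each library, in TMM-scaled CPM on a log axis, with CCI libraries in red and control libraries in blue; horizontal lines are group means and vertical lines ± 1 SD (n = 3). The CCI libraries lie above every control for Hbb-bs, Hbb-bt and Alas2 and below every control for Fech, and control replicate 5 has the highest Hba-a1 and Hba-a2 levels of all 6 libraries.

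Hbb-bt (ENSMUSG00000073940, chromosome 7, 103461731 to 103463203, minus strand, GRCm39 as in the table), the lower of the adult beta-globin pair, had 37.1, 39.6 and 38.0 CPM in CCI replicates 1, 2 and 3 and 9.90, 6.15 and 4.49 CPM in control replicates 4, 5 and 6. Every CCI library held several times the level of every control library, and the CCI libraries were close to each other. The log2 fold change was 2.48 ± 0.28 (SE), with an adjusted p of 0.000305 in edgeR's quasi-likelihood test. Over 16 alternative fits the lowest value was 2.23 and the highest 3.14, and it passed in each.

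Hbb-bs (ENSMUSG00000052305, chromosome 7, 103475741 to 103477303, minus strand), its more abundant neighbour, had 146, 141 and 140 CPM in the CCI libraries and 75.9, 89.9 and 49.2 CPM in the control libraries. The groups did not overlap, and the CCI libraries were spread less widely (SD 3.30 CPM) than the controls (SD 20.7 CPM). The log2 fold change was 0.99 ± 0.22 (SE; edgeR adjusted p = 0.00596), and it passed in all 16 alternatives, from 0.77 to 1.84.

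Relative to Hbb-bs, Hbb-bt was higher in CCI within libraries. There were 0.254, 0.281 and 0.271 Hbb-bt counts per Hbb-bs count in CCI, against 0.130, 0.0683 and 0.0912 in control, a ratio that no scaling between libraries can alter. The lowest 95% counting limit of a CCI library, 0.226, lay above the highest of a control library, 0.159. These intervals cover counting error only. On average the ratio was 0.269 ± 0.0137 in CCI and 0.0965 ± 0.0312 in control (SD, n = 3), 2.78 times as high in CCI; no test was run on ratios of members.

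The alpha-globin calls depended on 1 control library and also on scaling and correction. Hba-a1 (ENSMUSG00000069919, chromosome 11, 32233511 to 32234465, plus strand) had 213, 203 and 214 CPM in CCI and 156, 338 and 111 CPM in control. The highest and the lowest value were both in control libraries, so the groups overlapped. CCI over control was 0.06 ± 0.36 on the log2 scale (SE; edgeR adjusted p = 0.895). Without control replicate 5 it was 0.64 (edgeR adjusted p = 0.00291), without control replicate 6 it was -0.24 and without control replicate 4 it was -0.12. With length and GC corrected it was -0.09, and with mean expression added 0.87 (edgeR adjusted p = 0.0395).

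Hba-a2 (ENSMUSG00000069917, chromosome 11, 32246489 to 32247298, plus strand), the second alpha copy on the same strand, had 38.6, 48.8 and 69.5 CPM in CCI and 31.9, 74.3 and 22.6 CPM in control. Control replicate 5 was again the highest of the 6. At 0.29 ± 0.41 (SE) on the log2 scale it did not pass (edgeR adjusted p = 0.573), but it was 0.93 without control replicate 5 (edgeR adjusted p = 0.00561) and -0.02 without control replicate 6. On the deposited FPKM scale, which lacks the TMM factor, both alpha genes passed in limma on log2(FPKM + 1), at 0.82 (adjusted p = 0.0447) for Hba-a1 and 1.01 (adjusted p = 0.0407) for Hba-a2, where the median tested gene lay 0.51 higher than with TMM.

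Summed over the 4 genes, globins took 0.0543%, 0.0524% and 0.0569% of all counts in the CCI libraries and 0.0246%, 0.0349% and 0.0162% in the control libraries. On this scale every CCI library lay above every control. The exact binomial intervals, which cover counting error only, did not meet between the groups (lowest CCI limit 0.0509%, highest control limit 0.0359%). Many genes shared this direction without TMM: with total-count scaling 6477 of 14259 tested genes were higher in CCI and 1386 lower. In TMM-scaled CPM the sums were 435, 433 and 461 in CCI and 273, 508 and 187 in control, so control replicate 5, whose TMM factor was 0.686, became the highest. Without it the mean sum in CCI was 1.93 times that in control, against 1.37 times with it.

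The alpha and beta sums can be set against each other inside each library. CCI libraries held 0.728, 0.716 and 0.628 beta counts per alpha count and control libraries 0.458, 0.233 and 0.403. All CCI ratios were above all control ratios, and control replicate 5 had the lowest. Within the alpha pair there were 0.181, 0.240 and 0.325 Hba-a2 counts per Hba-a1 count in CCI and 0.205, 0.22 and 0.204 in control. Here the spread was among the CCI libraries and the groups overlapped.

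**Figure D2:**
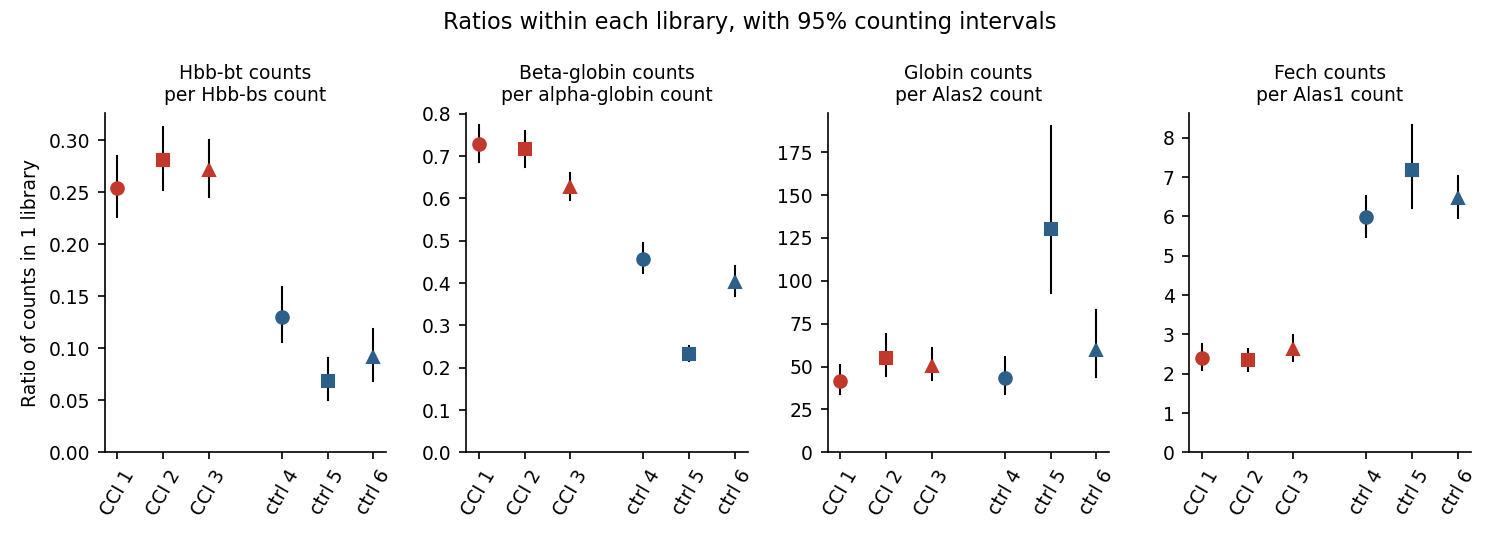
Ratios of counts inside each library, which do not depend on scaling between libraries, with 95% counting intervals as vertical lines (CCI replicates 1 to 3 in red, control replicates 4 to 6 in blue). Hbb-bt per Hbb-bs is 0.254 to 0.281 in CCI and 0.0683 to 0.130 in control, beta per alpha is higher in CCI, globin per Alas2 overlaps apart from 130 in control replicate 5, and Fech per Alas1 is 2.34 to 2.63 in CCI and 5.99 to 7.18 in control.

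Per length, in FPKM as deposited, the order of the members was Hba-a1, Hbb-bs, Hba-a2, Hbb-bt, then Fech, Alas1 and Alas2 in CCI, with means of 318 ± 13.4, 228 ± 8.34, 96.4 ± 28.9, 66.9 ± 1.17, 6.79 ± 0.337, 6.23 ± 0.680 and 4.69 ± 0.733 FPKM (SD, n = 3). In control it was Hba-a1, Hbb-bs, Hba-a2, Fech, Hbb-bt, Alas1 and Alas2, with 192 ± 85.3, 74.9 ± 17.4, 49.6 ± 24.2, 17 ± 6.97, 8.07 ± 4.0, 5.99 ± 2.79 and 1.54 ± 0.722 FPKM. Neighbours whose library ranges overlapped were Fech and Alas1 in CCI, and in control Hba-a2 with Hbb-bs, Fech with Hbb-bt and Hbb-bt with Alas1. Hbb-bt thus stood above the enzymes in every CCI library, while in each control library it was below Fech.

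Alas2 (ENSMUSG00000025270, chromosome X, 149330371 to 149353634, plus strand), the erythroid form of the entry enzyme, had 104, 86 and 119 counts in CCI and 71, 33 and 42 in control. Scaled, these were 10.4, 7.85 and 9.17 CPM in CCI and 6.34, 3.90 and 3.14 CPM in control, low levels that did not overlap between the groups. On the log2 scale Alas2 rose by 1.04 ± 0.30 (SE; edgeR adjusted p = 0.0202). Leaving out CCI replicate 1 gave 0.93 (edgeR adjusted p = 0.0782), leaving out CCI replicate 3 gave 1.03 (0.0558) and leaving out control replicate 6 gave 0.82 (0.0692). In the other 13 alternatives it passed.

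The table places Apex2, which encodes a DNA repair endonuclease, on the opposite strand across the whole of Alas2 (149302515 to 149372864). These are gene spans, and whether exons of the 2 genes coincide was not checked. No strand setting is stated, so reads may not have been told apart where exons do coincide. Apex2 had 24.2, 23.1 and 29.1 CPM in CCI and 11.7, 12.3 and 14.1 CPM in control, a log2 fold change of 1.0 ± 0.18 (SE; edgeR adjusted p = 0.00244). Its rise was of the same size as that of Alas2, and its part in the Alas2 result was not tested.

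Globins were compared with Alas2 inside each library. There were 41.7, 55.2 and 50.3 globin counts per Alas2 count in CCI and 43.1, 130 and 59.5 in control. The groups overlapped, and 1 control library, replicate 5, stood high with a 95% counting interval of 92.6 to 190. For the beta genes alone the ratio to Alas2 was 17.6, 23.0 and 19.4 in CCI and 13.5, 24.6 and 17.1 in control, which also overlapped, and the group means were 20 ± 2.75 and 18.4 ± 5.66 (SD, n = 3). Control replicate 5 was therefore high in alpha-globin counts relative to Alas2 (106, against 24.1 to 32.1 in CCI and 29.6 and 42.4 in the other controls).

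Fech (ENSMUSG00000024588, chromosome 18, 64585985 to 64623322, minus strand), encoding ferrochelatase, had 75.6, 81.4 and 72.3 CPM in CCI and 328, 181 and 331 CPM in control. Each CCI library was below each control, with control replicate 5 the nearest. The log2 fold change was -1.87 ± 0.25 (SE; edgeR adjusted p = 0.000581), and it passed in all 16 alternatives, from -2.49 (length and GC correction) to -1.12 (limma on log2(FPKM + 1)). The table gives Fech a length of 13838 bp, the longest of the 7.

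Alas1 (ENSMUSG00000032786, chromosome 9, 106110654 to 106125853, minus strand), the form of the entry enzyme used by all cells, had 31.5, 34.9 and 27.5 CPM in CCI and 54.9, 25.2 and 51.1 CPM in control. Control replicate 5 was below the CCI libraries and the other controls were above them. At -0.49 ± 0.28 (SE) on the log2 scale it did not pass (edgeR adjusted p = 0.169), and it was -0.78 without control replicate 5 (edgeR adjusted p = 0.000422). Scaled by total counts alone it was 0.06 and on log2(FPKM + 1) 0.14, where the median tested gene shifted by 0.59 and 0.51.

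The enzymes also shifted relative to each other. There were 2.40, 2.34 and 2.63 Fech counts per Alas1 count in CCI and 5.99, 7.18 and 6.47 in control, a gap that control replicate 5 shared with the other controls. Alas2 counts per Alas1 count were 0.331, 0.225 and 0.333 in CCI and 0.115, 0.155 and 0.0615 in control. The lowest 95% counting limit of a CCI library for the Alas2 ratio, 0.176, was under the highest of a control library, 0.224.

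Of the enzymes that act between these steps 5 are described, of which 2 rose and 3 fell in CCI. Among all tested genes 27.0% were higher and 25.3% lower. In pathway order, the porphobilinogen synthase gene Alad averaged 27.6 ± 4.06 CPM in CCI, against 47.8 ± 2.0 in controls (SD, n = 3; log2 fold change -0.80 ± 0.16). Uros, encoding uroporphyrinogen III synthase, had 41.1 ± 3.05 CPM in CCI and 70.4 ± 1.43 in control, and Urod, the decarboxylase gene of the next step, 49.3 ± 7.22 and 89.6 ± 7.79 CPM. On the log2 scale Uros fell by 0.78 and Urod by 0.86. Cpox, encoding the mitochondrial enzyme that makes protoporphyrinogen, rose to 66.6 ± 7.25 CPM in CCI, against 24.6 ± 2.39 in control (1.43 ± 0.16), and Ppox, the next step, to 25.9 ± 1.75 CPM, against 10.2 ± 5.11 (1.34 ± 0.34). The edgeR adjusted p-values of the 5 were 0.000307 (Cpox) to 0.0106 (Ppox). Cpox and Ppox passed in all 16 alternatives, but Alad, Uros and Urod were at -0.20, -0.19 and -0.26 with total-count scaling and did not pass.

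**Figure D3:**
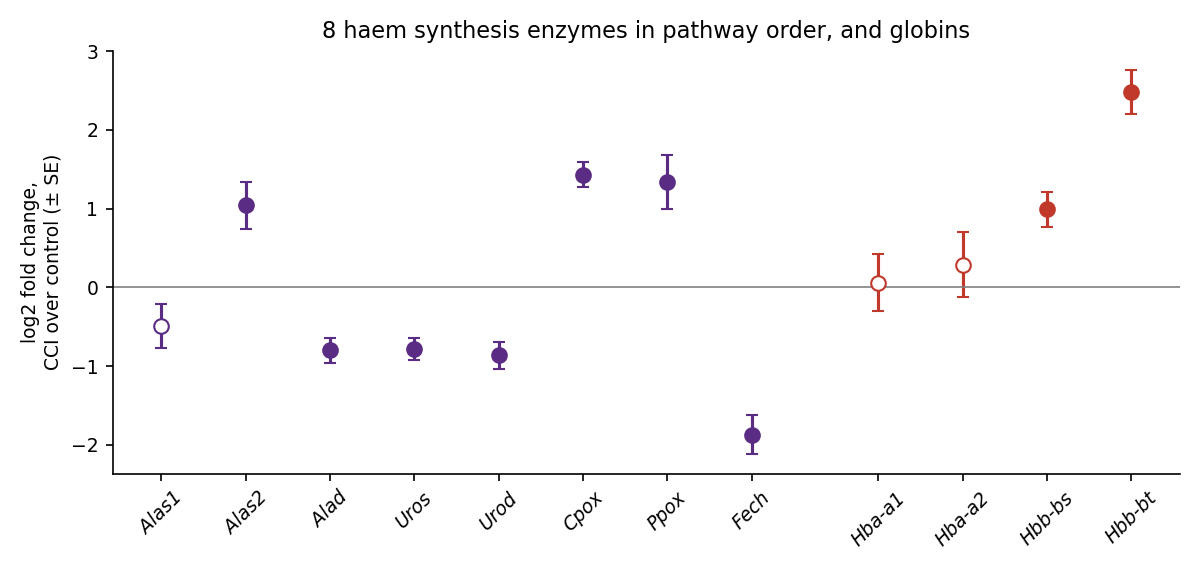
Log2 fold change of CCI over control (edgeR, TMM scaling) for 8 haem synthesis enzymes in pathway order (purple) and globins (red), with SE as vertical bars; open circles did not pass an adjusted p of 0.05. Alad, Uros, Urod and Fech lie below 0, while Alas2, Cpox, Ppox, Hbb-bs and Hbb-bt lie above it.

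Genes that supply the pathway, and the lists that follow, were described beside all tested genes. Of all tested genes 27.0% were higher and 25.3% lower, and their median log2 fold change was 0.06. Of 13 tested genes of mitochondrial haem precursor and iron-sulphur supply, 2 were higher, 8 lower and 3 did not pass (median -0.69). The glutaredoxin gene Glrx5, used in iron-sulphur cluster assembly, had 10.5 ± 2.03 CPM in CCI and 54.4 ± 11.0 in control (-2.37 ± 0.23), and Clpx, a mitochondrial protease subunit gene that acts on ALAS proteins, had 47.4 ± 5.92 and 129 ± 6.88 CPM (-1.45 ± 0.16; edgeR adjusted p = 0.000212 and 0.000274 for the pair). With total-count scaling 3 of the 13 were higher and 2 lower. The higher count was 0 without control replicate 6 and 1 without any of the other libraries except control replicate 5.

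Of 14 tested genes of cellular iron handling 5 were higher, 4 lower and 5 did not pass (median 0.13). For all tested genes the shares were 27.0% higher and 25.3% lower. The list summed to 6443 to 8551 CPM in CCI and 3134 to 3362 CPM in control. The ubiquitin ligase gene Fbxl5, an iron sensor that targets iron regulatory proteins, fell by 1.40 on the log2 scale, to 144 ± 28.3 CPM in CCI, against 381 ± 30.2 in control. Ireb2, which encodes one of those iron regulatory proteins, rose to 80 ± 3.89 CPM in CCI, against 43.5 ± 4.59 in control (0.88 ± 0.15), and the ceruloplasmin gene Cp to 26.4 ± 1.98, against 11.5 ± 2.15 (1.2 ± 0.20). In edgeR the adjusted p was 0.000728 for Fbxl5, 0.00169 for Ireb2 and 0.00152 for Cp. Ireb2 was at 0.27 (adjusted p = 0.109) after length and GC correction, and Cp at 0.50 (0.0576) with mean expression added to the correction. On the total-count scale 7 genes of the list were higher and 2 lower, where 6477 of all 14259 tested genes were higher and 1386 lower.

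Of 15 tested genes of haem breakdown, binding and transport, 3 were higher, 4 lower and 8 did not pass (median -0.16). Shares over all tested genes were 27.0% higher and 25.3% lower. The transporter gene Abcg2, whose product exports porphyrins, was 2.61-fold lower and the biliverdin reductase gene Blvra 2.26-fold lower in CCI (edgeR adjusted p = 0.000446 and 0.00125). Lrp1, which encodes the receptor for haem bound to haemopexin, was at 0.81 ± 0.17 (edgeR adjusted p = 0.0044). After length and GC correction Lrp1 passed in the other direction, at -0.57 (edgeR adjusted p = 0.00689). The higher count was 1 without any single CCI library or control replicate 6. With total-count scaling 4 genes of the list were higher and 2 lower.

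Other globins showed no such change as the beta genes. Of 4 tested, none was higher and 1 was lower (at an adjusted p of 0.0494), Hbq1a, at 1.33 ± 0.508 CPM in CCI and 2.70 ± 0.440 in control, a call lost without CCI replicate 1 or 3 or any control library (edgeR adjusted p up to 0.161). Neuroglobin, Ngb, had 22.4 ± 5.01 CPM in CCI and 30.5 ± 9.72 in control, and cytoglobin, Cygb, 36.6 ± 8.91 and 24.3 ± 16.1 (edgeR adjusted p = 0.175 and 0.275). Without control replicate 4, 2 were higher, Cygb among them (1.19, adjusted p = 0.0182), and without control replicate 5 Ngb was at -0.59 (0.0409). The embryonic globin genes Hba-x, Hbb-y and Hbb-bh1, with Hbb-bh2, had 0 counts in all 6 libraries.

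Of 9 tested regulators of Alas1, 2 were higher, 3 lower and 4 did not pass (median 0.17), beside 27.0% higher and 25.3% lower over all tested genes. The coactivator gene Ppargc1a, which raises Alas1 transcription in mouse liver, had 63.6 ± 4.70 CPM in CCI and 27.1 ± 3.33 in control (1.23 ± 0.16), and its relative Ppargc1b rose by 1.04 ± 0.21. Lonp1, encoding a protease that degrades ALAS1 protein, fell by 1.12 on the log2 scale. Their edgeR adjusted p-values were 0.000545, 0.00371 and 0.00129, and on the total-count scale 4 were higher and 1 lower.

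Markers of blood and vessel cells were read beside the globins. Of 21 erythroid genes in the table, which include red cell membrane proteins and erythroid transcription factors, 6 were tested; none was higher (none at an unadjusted p under 0.05 and none by DESeq2's Wald test either), and 2 were lower. With total-count scaling 3 were higher. The 2, Lmo2 (-1.65 ± 0.20) and Bpgm (-1.07 ± 0.21), are also expressed outside red cells (edgeR adjusted p = 0.000373 and 0.00327), and Bpgm was at -0.04 (0.885) with length, GC and mean expression corrected. The summed level of the list was 157 to 175 CPM in CCI and 263 to 371 CPM in control, most of it from Bpgm and Lmo2 (110 to 134 CPM in CCI and 225 to 336 CPM in control). Without them, an alternative chosen after seeing the data, the direction turned, with 41.6 to 46.9 CPM in CCI and 35.8 to 38 CPM in control for the other 19 genes. Most of that remainder was Sptb, at 25.8 to 34 CPM in CCI and 21 to 27.1 CPM in control, which overlapped. Sptb did not pass (edgeR adjusted p = 0.146), and after length and GC correction it passed as lower, at -0.62 (edgeR adjusted p = 0.0165). The turned direction thus leans on a gene that did not pass. Hemgn and Rhag, both markers of red cell precursors, had 0 counts in all libraries, and the band 3 gene Slc4a1 had 1, 3 and 2 counts in CCI and 0 in each control. These defining markers were thus at or near 0 in every library.

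Tal1, Epor, Sptb and Ank1 did not pass (log2 fold changes 1.26, 0.23, 0.34 and 0.07), and Epb42 had 3, 7 and 1 counts in CCI and 19, 2 and 6 in control. After length and GC correction Ank1, like Sptb, passed as lower, at -1.03 (edgeR adjusted p = 0.0221). Platelet markers summed to 8.42 to 9.55 CPM in CCI and 5.18 to 6.74 CPM in control, with no overlap. Of the 2 tested, Pf4 (0.69 ± 0.39, edgeR adjusted p = 0.164) and Itga2b (0.06 ± 0.33), none passed (at an unadjusted p under 0.05, none either), though 1 platelet gene was higher by DESeq2's Wald test, with no filter, without CCI replicate 1, or without control replicate 4 or 5. Pf4 passed with total-count scaling (1.29, edgeR adjusted p = 0.0172) and after length and GC correction (0.99, edgeR adjusted p = 0.0443). It also passed in limma on log2(FPKM + 1) and log2(FPKM + 0.1). Ppbp, a platelet chemokine gene, had 4, 16 and 30 counts in CCI and 2, 3 and 2 in control, and Gp9 and Treml1 had 23 counts each over the 6 libraries.

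Neutrophil markers summed to 4.41 to 5.16 CPM in CCI and 3.07 to 5.0 CPM in control. Neither tested gene passed, Csf3r at 0.92 ± 0.42 and S100a8 at -0.66 ± 0.44 (edgeR adjusted p = 0.0913 and 0.234; none at an unadjusted p under 0.05). By DESeq2's Wald test, or without any 1 CCI library or control replicate 5, 1 gene of the list was lower. With total-count scaling and on log2(FPKM + 1) and log2(FPKM + 0.1), 1 was higher. It was Csf3r, at 1.47 with total-count scaling (edgeR adjusted p = 0.0277). S100a9 had 2, 2 and 1 counts in CCI and 14, 7 and 18 in control, whereas Camp had 6, 7 and 7 in CCI and 3, 2 and 2 in control. Lymphocyte markers summed to 2.19 to 3.61 CPM in CCI and 1.80 to 3.90 CPM in control, and the 1 tested, Cd3e, was at -0.71 ± 0.55. Cd79a had 4, 3 and 4 counts in CCI and 7, 6 and 8 in control, and Cd79b had 33 counts in all.

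Endothelial markers summed to 300 to 355 CPM in CCI and 328 to 369 CPM in control, which overlapped. Of 12 tested, 2 were higher, 1 lower and 9 did not pass (median -0.15), beside 27.0% higher and 25.3% lower over all tested genes. Flt1 (0.58 ± 0.15) and Cdh5 (1.19 ± 0.40) were the higher genes and the transporter gene Slco1a4 (-0.54 ± 0.16) the lower (edgeR adjusted p = 0.0111, 0.0341 and 0.0208). Flt1 lost its call when CCI replicate 2 was left out, Slco1a4 when CCI replicate 1, CCI replicate 2 or control replicate 4 was, and Cdh5 when any library other than CCI replicate 2 and control replicate 5 was (adjusted p up to 0.133). With total-count scaling Slco1a4 was at 0.04. Per endothelial count there were 1.45, 1.27 and 1.3 globin counts in CCI and 0.740, 1.55 and 0.540 in control, so on this measure too the CCI libraries lay above control replicates 4 and 6 and below control replicate 5.

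Of 9 mural cell markers tested, 3 were higher, 3 lower and 3 did not pass (median 0.02), beside 27.0% higher and 25.3% lower over all tested genes. The mural list summed to 183 to 228 CPM in CCI and 273 to 353 CPM in control. The pericyte receptor gene Pdgfrb rose by 1.91 ± 0.29, while Rgs5 fell by 1.04 and the smooth muscle actin gene Acta2 by 1.35 on the log2 scale (edgeR adjusted p = 0.000995, 0.00188 and 0.0065). With total-count scaling 4 mural markers were higher and none was lower, with Rgs5 at -0.46 (adjusted p = 0.101) and Acta2 at -0.79 (0.096), and without CCI replicate 1, 1 was higher. The part of vessel content in the globin result was not tested.

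**Figure D4:**
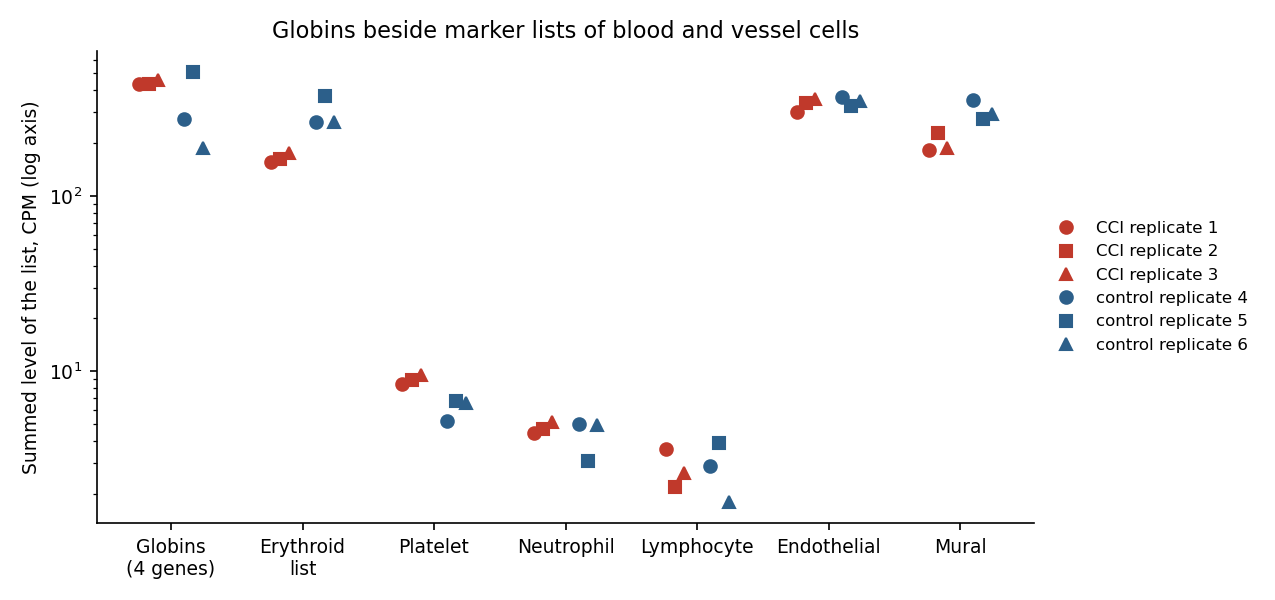
Summed CPM of the 4 globins and of marker lists of blood and vessel cells in each library, on a log axis (CCI in red, control in blue). Endothelial sums overlap between the groups, and globins are at 433 to 461 CPM in CCI and 187 to 508 CPM in control. The erythroid list is higher in control with Bpgm and Lmo2. Without them it is higher in CCI (41.6 to 46.9 CPM, against 35.8 to 38 CPM in control, not drawn). This alternative was chosen after seeing the data and removes the genes of the list that were called lower, which favours such a turn. Most of that remainder is Sptb, which did not pass.

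The summed globin level was read beside markers of tissue that borders the nucleus. On lists added after the values were seen, meningeal fibroblast markers summed to 83.7, 90.3 and 94.8 CPM in CCI and to 57.5, 87.7 and 32.6 CPM in control, and choroid plexus markers to 2621, 2923 and 2045 CPM in CCI and to 2762, 4163 and 287 CPM in control. Control replicate 5, the highest of the controls in summed globins, which the alpha genes carry, was the highest of them on both lists, and replicate 6 was the lowest on both. Hbb-bt did not share this order, since its highest control level was in replicate 4 (9.90 CPM, against 6.15 in replicate 5 and 4.49 in replicate 6). Their part in the globin result was not tested.

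The genes most like the globins were sought among 12314 named genes. Over the 6 libraries, log2 CPM of Cdkn1c, Fxyd1, Creb3l2, Ranbp3l and H4c4 had the highest Pearson correlations with the mean of the 4 globins, at 0.999, 0.997, 0.994, 0.992 and 0.991. The cell cycle inhibitor gene Cdkn1c had 9.92, 10 and 11.6 CPM in CCI and 4.73, 6.62 and 2.62 CPM in control, with control replicate 5 the highest of the controls. Most like Alas2 were Gpr26, Prkcsh and Abca9 (0.994, 0.990 and 0.989), most like Alas1 were Samd10, Capn7 and Rab5c (0.999, 0.997 and 0.997), and most like Fech were Ap5s1 and Tmem62 (1.0 and 0.999). With 6 libraries in 2 groups such values are a description and were given no p.

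Among the members themselves, Hba-a1 and Hba-a2 correlated at 0.90 over the 6 libraries and Hbb-bs and Hbb-bt at 0.93, while Hba-a1 and Hbb-bt were at 0.26. Alas2 was at 0.95 with Hbb-bt and 0.89 with Hbb-bs, and at 0.24 with Hba-a1. Fech was at -0.91 with Hbb-bt and 0.72 with Alas1. Over the 6 libraries the copies of each chain thus correlated, and Alas2 correlated more with the beta genes than with the alpha genes. These correlations include the difference between the groups, and the beta genes and Alas2 were the members called higher. Among control replicates 4, 5 and 6 the beta copies did not share an order (Hbb-bs 75.9, 89.9 and 49.2 CPM, Hbb-bt 9.90, 6.15 and 4.49 CPM). All these correlations share the libraries and the TMM factors.

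**Figure D5:**
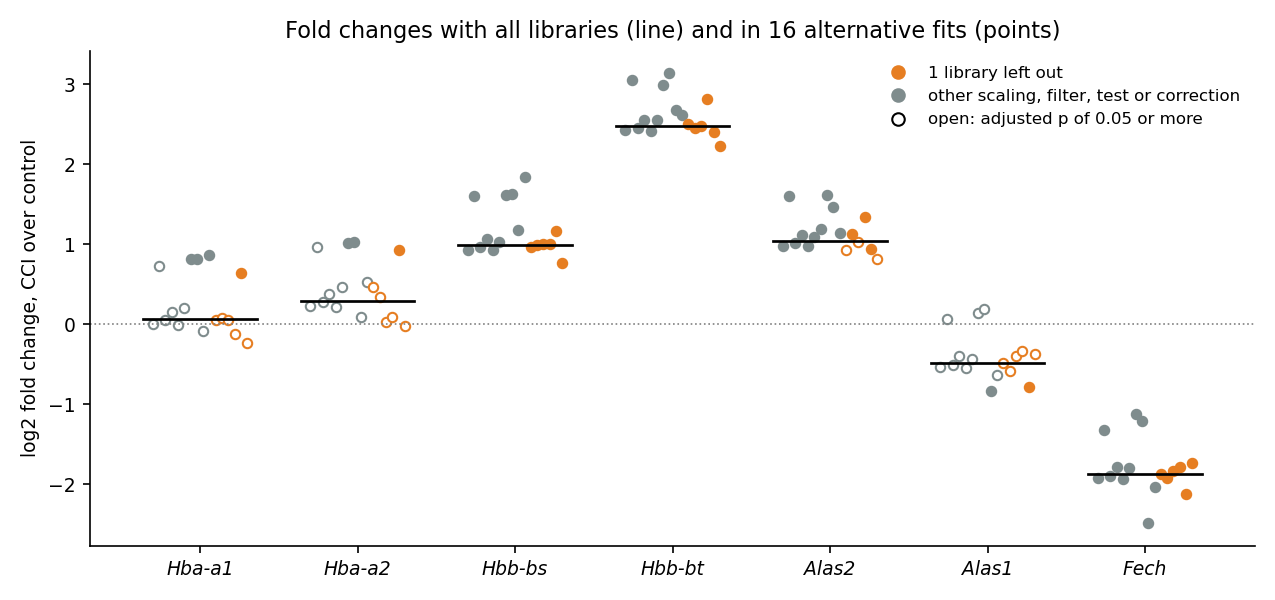
Log2 fold change of CCI over control for each member with all libraries (black line) and in 16 alternative fits (points; orange where 1 library is left out, grey for another scaling, filter, test or correction; open where the adjusted p was 0.05 or more). Hbb-bs, Hbb-bt and Fech pass in all 16, Alas2 in 13, Hba-a1 in 4, Hba-a2 in 3 and Alas1 in 2.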

How the data were processed

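RNA of the paraventricular thalamus was measured in 3 CCI and 3 control libraries. Per the labels' protocols, mRNA was selected with poly-T beads, copied with random oligonucleotides and read on a NovaSeq platform. The submitters' processing notes list, without roles, the GRCm39 build, HISAT2 2.1.0, StringTie 2.2.1, HTSeq 0.9.1, fastp 0.22.0 and DESeq 1.38.3; strand setting and read length are not given in the sources used here. Per the file headers the deposited table holds a read count and an FPKM value per gene and library and a gene length in bp; the deposited FPKM equalled count over length and column total (largest relative difference 1.3e-07). The counts were used as deposited, at 7989139 to 15438268 per library; 4001 of 21959 genes had no count.

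The test was that of edgeR 4.0.16 under R 4.3.3 (filterByExpr, TMM, quasi-likelihood F-test, Benjamini-Hochberg over 14259 genes, threshold 0.05). SEs were obtained as the log2 fold change over the square root of its F statistic. The 16 alternatives were DESeq2 size factors, total-count scaling, no filter, a filter of at least 1 FPKM in 3 libraries, the Wald test of DESeq2 1.42.0, voom and log2(FPKM + 1) or log2(FPKM + 0.1) in limma 3.58.1, spline corrections (4 degrees of freedom) for length and GC content and also mean expression, and each library left out. GC content came from GENCODE M21, matched by Ensembl identifier for 99.9% of tested genes. Counting intervals are exact binomial at 95%. Python 3.11.15, numpy 2.4.6, pandas 2.3.3, scipy 1.17.1 and matplotlib 3.10.9 were also used. The main edgeR fit, DESeq2, voom, log2(FPKM + 1) and the spline corrections were first tested on simulated data with known fold changes. The other alternatives were not.

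The members and 15 gene lists were chosen with earlier results of these data known. Named were all members, up to 3 tested genes per list, those of lowest unadjusted p, blood cell markers with at least 20 counts, the 5 genes most like the globins and the 3 most like each enzyme (mean of at least 1 FPKM in 1 group, named symbols only). Some items that the rule selects are not reported here. Alad, Urod and Ppox were added from the pathway, and Slc4a1, Hemgn and Rhag and the untested embryonic globins after their values were seen. Promoter sequences are from RefSeq on GRCm38.p6 and coding sequences from GENCODE M21, whose coordinates differ from those of the table.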

Additional observations from a re-analysis of the deposited data

How the results depend on the processing

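No paired analysis was possible because the groups share no replicate numbers. Hbb-bs, Hbb-bt and Fech kept their direction and passed in all 16 alternatives. Leaving out 1 library gave 2 to 5 higher members and 1 to 2 lower ones, and log2 fold changes of -0.24 to 0.64 for Hba-a1, -0.02 to 0.93 for Hba-a2, 0.82 to 1.34 for Alas2, -0.78 to -0.34 for Alas1, 0.77 to 1.17 for Hbb-bs, 2.23 to 2.82 for Hbb-bt and -2.13 to -1.74 for Fech. On log2(FPKM + 1) and log2(FPKM + 0.1) 5 members were higher, with Hba-a1 at 0.82 on both scales and Hba-a2 at 1.01 and 1.03, and Alas1 at 0.14 and 0.19. Scaled by total counts Alas1 was at 0.06. Length and GC correction put Hba-a1 at -0.09 and Alas1 at -0.83, with 2 members lower, and with mean expression added Hba-a1 was at 0.87. The DESeq2 Wald test put Hba-a1 at -0.01. Over all genes 3853 were higher and 3608 lower (51.6% higher); this was 6477 and 1386 by total counts, 6785 and 1374 on log2(FPKM + 1) and 6632 and 1345 on log2(FPKM + 0.1), where 82.4%, 83.2% and 83.1% were higher. The median gene moved by 0.59, 0.51 and 0.60 there, and by -0.14 with length, GC and mean expression corrected. The causes of these shifts were not tested.

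Of 663 values of 42 other named genes, 574 kept their call and direction, 49 lost and 17 gained a call, and 23 changed sign. Under total counts, log2(FPKM + 1) and log2(FPKM + 0.1), Ngb was at 0.12, 0.16 and 0.18 and Slco1a4 at 0.04, 0.06 and 0.07. Length and GC correction put Lrp1 at -0.57, Sptb at -0.62, Ank1 at -1.03, Itga2b at -0.54 and Flt1 at -0.07. With mean expression added, Lrp1 was at -0.38, Tal1 at -0.03, Epor at -0.41, Sptb at -0.67, Ank1 at -1.44 and Itga2b at -0.85. Under both corrections Lrp1, Sptb and Ank1 passed as lower, and the others named here did not pass. With the DESeq2 Wald test Ank1 was at -0.00 and Itga2b at -0.01. Leaving out 1 library gave -0.19 to 0.22 for Ank1 and -0.21 to 0.30 for Itga2b. Depth limits Alas2 most, with 33 to 119 counts per library, and reads shared by globin copies limit each single-copy value.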
